A study of Rattus norvegicus with 9 samples.

Results

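Ephrins and their Eph receptors were followed in the cerebral cortex of rat pups whose families ate 4-methylimidazole (4-MeI), an imidazole compound known as a by-product of caramel colouring. The genes considered were 5 ephrins (Efna3, Efna5, Efnb1, Efnb2, Efnb3) and 5 receptors (Epha3, Epha4, Epha5, Epha7, Ephb1). All probe sets to which the platform annotation gives exactly 1 of these symbols were taken. They numbered 16 of 31042 probe sets on the array, and they covered 8 of the 10 genes, among 14217 genes with a symbol. Efna3 and Efnb2 have no probe set under that rule and were not analysed here. Of the 16 probe sets, 14 lay above the filter on dim signal and entered the tests, and the remaining 2, a second probe set each of Efna5 and Efnb1, are given by their levels.

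The animals were Hsd:Sprague Dawley SD rats in a continuous-breeding design over successive generations, with no transgene or mutant allele. The 2500 ppm and 750 ppm groups descend from rats fed 4-MeI at that dietary concentration, and the control group from rats fed 0 ppm. Cortex was taken from F2b pups on postnatal day 4, 1 pup per litter, and 3 pups per group were each profiled on an Affymetrix array. The title of the series names maternal seizures as part of the setting, but the labels name neither the dams affected nor the sex of the pups. Values are log2 intensities, on which a difference of 1 is a doubling.

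Ephrins are ligands that stay attached to the cell surface, ephrin-A proteins by a lipid anchor and ephrin-B proteins by a transmembrane segment. Eph receptors are receptor tyrosine kinases that bind them where cells touch, and signals can run in both directions, into the cell with the receptor and into the cell with the ephrin. In the developing cortex they are best known for repelling or sorting growing axons, for the mapping of thalamic axons onto cortical areas, and for shaping dendritic spines. EphA receptors mostly bind ephrin-A ligands and EphB receptors ephrin-B ligands, with EphA4 as a receptor that binds both classes.

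Array medians lay between 7.67 and 7.71. Control replicate 3 and 750 ppm replicate 3 stood apart from their groups, with scores on the first principal component (35.6% of the variance) of -25.2 and 14.98, and calls that change without them are given both ways. Of 23 genes that mark excitatory cortical layers, 20 were tested, among them Neurod6 with a mean of 13.02, Mef2c with 14.07 and Bcl11b with 12.71. Tbr1, a defining factor of deep layers, was below the filter at 5.96. The mean of the 20 genes, relative to all arrays, ranged from -0.079 to 0.17 at 2500 ppm, from -0.15 to -0.020 at 750 ppm and from 0.043 to 0.10 in controls. In cortex tissue, fewer cells of a type and less RNA per cell cannot be told apart.

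Efna5, which encodes ephrin-A5, was the gene among these whose probe set passed the test. It lies on chromosome 9 of the GRCr8 assembly from 109763786 to 110042396. Epha5, a receptor of ephrin-A5, had the smallest p among the receptors in the comparison of 2500 ppm with control, and lies on chromosome 14 from 24007400 to 24374854. The 250 bases before the start that the RefSeq promoter table gives for each gene are shown because these are the ligand that rose and the receptor whose arrays read lower without passing the test. The sequences are from RefSeq on GRCr8, 5′ to 3′ on the strand of the gene, at chr9:110042188-110042437 on the minus strand for Efna5 and at chr14:24007872-24008121 on the plus strand for Epha5. Both starts lie inside the full span of the gene, so other transcripts of it can begin further upstream. Capitals mark each CG dinucleotide, which reads the same on both strands.
Efna5: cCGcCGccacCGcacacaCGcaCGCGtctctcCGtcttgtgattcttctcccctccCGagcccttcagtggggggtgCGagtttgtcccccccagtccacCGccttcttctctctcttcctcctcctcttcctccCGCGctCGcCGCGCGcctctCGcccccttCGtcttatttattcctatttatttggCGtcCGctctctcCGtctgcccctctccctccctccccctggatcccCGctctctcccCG
Epha5: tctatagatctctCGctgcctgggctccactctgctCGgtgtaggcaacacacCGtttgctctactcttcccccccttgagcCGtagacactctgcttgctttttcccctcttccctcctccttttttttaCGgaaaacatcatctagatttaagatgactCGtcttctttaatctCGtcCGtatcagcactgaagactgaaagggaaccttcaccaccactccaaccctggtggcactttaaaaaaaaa
The Efna5 window has 23 CG dinucleotides and 64.8% G and C, against 8 and 47.6% in the Epha5 window. Over 33469 rat promoter windows of this length the medians are 5 CG dinucleotides and 51.2% G and C, and 92.2% of windows hold at least 1. The arrays measured transcripts and not these regions, so the letters are a description only.

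The leading probe set of Efna5, 1375647_at, read 11.08, 11.02 and 11.01 in the 2500 ppm arrays, against 10.23, 10.30 and 10.30 in the controls. In the 750 ppm arrays it read 9.73, 10.27 and 10.10. Every 2500 ppm array was above every control array, and the 750 ppm arrays overlapped the controls, with replicate 1 lowest of all. The group means were 11.04 (SD 0.039) at 2500 ppm, 10.03 (SD 0.28) at 750 ppm and 10.28 (SD 0.041) in controls, with n = 3 each.

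Efna5 rose by 0.76 on the log2 scale at 2500 ppm against control (SE 0.12, 95% interval 0.49 to 1.02, adjusted p = 0.0301 in limma over all probe sets tested), a 1.69-fold higher intensity. Against 750 ppm it rose by 1.00 (SE 0.12, 95% interval 0.74 to 1.27, adjusted p = 0.0135), a 2.00-fold higher intensity. At 750 ppm it differed from control by -0.25 (SE 0.12, adjusted p = 0.517). That difference was -0.094 without 750 ppm replicate 1 (adjusted p = 0.853). A straight line over 0, 750 and 2500 ppm gave 0.35 per 1000 ppm (SE 0.079, adjusted p = 0.0926), and it was 0.33 at an adjusted p of 0.0261 when 750 ppm replicate 1 was left out. Leaving out any of the control or 2500 ppm arrays kept the change against control at 0.73 to 0.77 but raised the adjusted p to between 0.0588 and 0.108, and leaving out 750 ppm replicate 3 gave an adjusted p of 0.0243. The difference from 750 ppm lost its call without 2500 ppm replicate 1 (size 0.98, adjusted p = 0.0656), and likewise when 2500 ppm replicate 2 was left out (size 1.01, adjusted p = 0.0718).

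The second probe set of Efna5, 1369594_at, was dim, with a mean of 5.45 where the filter lay at 6.35. It read 5.67, 5.70 and 5.66 at 2500 ppm, against 5.34, 5.47 and 5.42 in controls. At 750 ppm it read 5.31, 5.25 and 5.24. The 3 groups did not overlap on this probe set, with 2500 ppm highest and 750 ppm lowest, the same order as the means of the brighter probe set. Once group means were taken out, r between the 2 probe sets of Efna5 was -0.34 over the 9 arrays. That value rests mostly on 750 ppm, where the leading probe set spanned 0.54, against 0.072 in controls and 0.075 at 2500 ppm. In controls, replicate 1 was lowest on both probe sets. Without the filter the dim probe set differed by 0.26 at 2500 ppm against control (adjusted p = 0.0908 in limma). Against 750 ppm it differed by 0.41 at 2500 ppm (adjusted p = 0.0325).

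**Figure D1:**
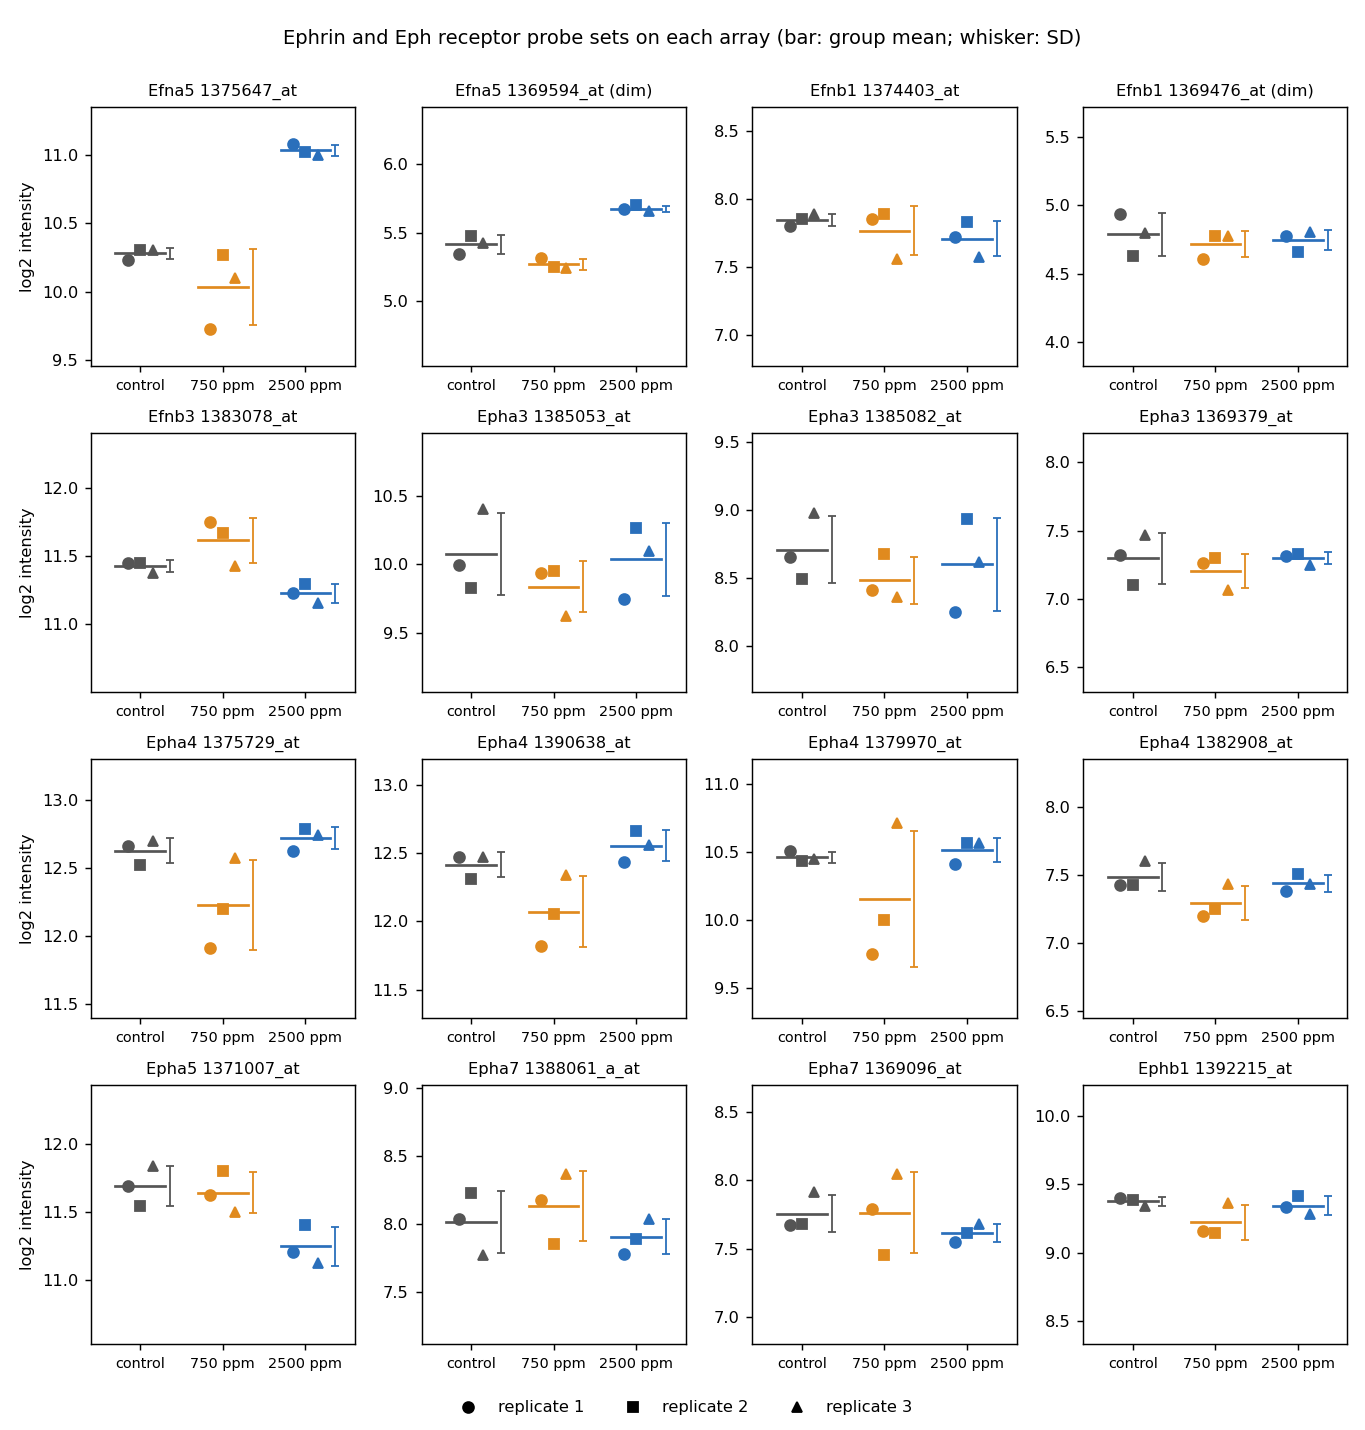
Log2 intensity (vertical axis, of the same height in each panel) of the 16 ephrin and Eph receptor probe sets in the control, 750 ppm and 2500 ppm groups, with a symbol per array, a bar at the group mean and a whisker of 1 SD (n = 3). The 2500 ppm arrays of Efna5 sit between 11.01 and 11.08, above all other arrays, while the Epha4 panels spread most at 750 ppm.

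No other ephrin passed the test with all 9 arrays. Efnb3 encodes ephrin-B3, a transmembrane ligand known in mouse as a midline barrier for corticospinal axons, and lies on chromosome 10 from 54773282 to 54780727. It read 11.23, 11.29 and 11.16 at 2500 ppm, against 11.45, 11.45 and 11.38 in controls. The 750 ppm arrays read 11.75, 11.67 and 11.43. The 2500 ppm arrays were below all others, and the 750 ppm arrays were above the controls except for replicate 3. The difference of 2500 ppm from control was -0.20 (SE 0.085, adjusted p = 0.285) and from 750 ppm -0.39 (SE 0.085, adjusted p = 0.111), so neither passed. Without 750 ppm replicate 3 the difference of 2500 ppm from 750 ppm was -0.48 (adjusted p = 0.00882). With array weights the differences from control and from 750 ppm were -0.22 (adjusted p = 0.0495) and -0.44 (adjusted p = 0.0141). Over all probe sets, calls against 750 ppm rose from 70 to 728 without that array and to 721 with array weights. Against control, array weights raised them from 149 to 1495.

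Efnb1 encodes ephrin-B1, another transmembrane ligand, and is an X-linked gene. Its brighter probe set read 7.72, 7.83 and 7.57 at 2500 ppm, against 7.80, 7.85 and 7.89 in controls. At 750 ppm it read 7.85, 7.89 and 7.56. The groups overlapped, and the difference at 2500 ppm was -0.14 (95% interval -0.36 to 0.083, adjusted p = 0.522). Its dim probe set lay between 4.60 and 4.94 on all 9 arrays, and r between the 2 probe sets of the gene was -0.29 over the 9 arrays.

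Among the receptors of ephrin-A5, Epha5 was lower at 2500 ppm on each array. EphA5 is a neuronal receptor tyrosine kinase of axon mapping. Its probe set, 1371007_at, read 11.21, 11.41 and 11.13 at 2500 ppm, against 11.69, 11.54 and 11.84 in controls. The 750 ppm arrays read 11.63, 11.80 and 11.50. The 2500 ppm arrays were below all 6 others, while the 750 ppm and control arrays overlapped. The difference at 2500 ppm was -0.44 against control (SE 0.11, 95% interval -0.69 to -0.20, adjusted p = 0.0987) and -0.39 against 750 ppm (SE 0.11, adjusted p = 0.197), and neither passed the threshold with all 9 arrays weighted equally. With array weights they were -0.42 (adjusted p = 0.0204) and -0.45 (adjusted p = 0.0412), and the difference from 750 ppm was -0.46 (adjusted p = 0.0443) with replicate 3 of the control and 750 ppm groups left out together. Array weights also raised the calls over all probe sets, from 149 to 1495 against control and from 70 to 721 against 750 ppm. Leaving out that pair of arrays raised the calls against 750 ppm to 1137. At 750 ppm the difference of Epha5 from control was -0.050 (95% interval -0.29 to 0.19).

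Epha4, the receptor of both ephrin classes, lies on chromosome 9 from 86263982 to 86406744 and has 4 probe sets. The leading probe set read 12.63, 12.79 and 12.74 at 2500 ppm, against 12.66, 12.52 and 12.70 in controls. At 750 ppm it read 11.92, 12.20 and 12.58. Replicates 1 and 2 at 750 ppm were below all other arrays, while replicate 3 lay within the control range. The next probe set had the same order of arrays at 750 ppm, with 12.44, 12.67 and 12.56 at 2500 ppm, 11.82, 12.06 and 12.34 at 750 ppm, and 12.47, 12.31 and 12.47 in controls. The other pair of probe sets ranged from 10.42 to 10.57 and from 7.38 to 7.51 at 2500 ppm, from 9.75 to 10.72 and from 7.20 to 7.43 at 750 ppm, and from 10.43 to 10.51 and from 7.42 to 7.60 in controls.

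On the leading probe set, 750 ppm differed from control by -0.40 (SE 0.14, unadjusted p = 0.0203, adjusted p = 0.398), and on the other 3 by -0.35, -0.31 and -0.19 with adjusted p of 0.395 to 0.605. Without 750 ppm replicate 3 these 4 differences were -0.57, -0.48, -0.59 and -0.26, with adjusted p of 0.0678, 0.101, 0.0506 and 0.218 in limma, so none passed. Without 750 ppm replicate 1 they were -0.24, -0.22, -0.10 and -0.14, with adjusted p of 0.834 to 0.940, while array weights gave the 2 brightest -0.49 and -0.44 with adjusted p of 0.0448 and 0.0473. With those weights, calls over all probe sets at 750 ppm against control rose from 2 to 340. Against control, 2500 ppm differed by 0.090 on the leading Epha4 probe set (95% interval -0.23 to 0.41, adjusted p = 0.791). Against 750 ppm it differed by 0.49 on the leading probe set (SE 0.14, adjusted p = 0.222) and by 0.48 on the next (SE 0.12, adjusted p = 0.164), with no overlap of arrays on either. Without 750 ppm replicate 3, the 3 brightest Epha4 probe sets passed in that comparison, at 0.66, 0.62 and 0.64 with adjusted p of 0.0120, 0.0152 and 0.00906. Without 750 ppm replicate 1 in its place, the same 3 were at 0.33, 0.36 and 0.15 with adjusted p of 0.467, 0.358 and 0.909. Over all 21729 probe sets, 728 passed in that comparison without replicate 3 and 13 without replicate 1, against 70 with all arrays. The relative mean of striatal marker genes was -0.71 on 750 ppm replicate 3, against 0.50 and 0.43 on replicates 1 and 2, and that of interneuron genes was -0.53, against 0.45 and 0.39. The mean of microglia and macrophage genes (10 of 12 tested) was 0.31, 0.18 and -0.045 on replicates 1, 2 and 3. That of astrocyte and radial glia genes (10 of 11 tested) was 0.16, 0.086 and -0.10. Over the 9 arrays, r of the leading Epha4 probe set was -0.66 with the microglia mean and -0.65 with the astrocyte mean. It was 0.60 with the excitatory layer mean, -0.63 with the interneuron mean and -0.43 with the striatal mean. The part of these cells in the Epha4 values was not tested. The 4 probe sets varied together over the 9 arrays, with r from 0.80 to 0.99 between pairs, as probe sets of the same gene on shared arrays.

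Epha3, Epha7 and Ephb1 overlapped between all groups. Epha3, a receptor with high affinity for ephrin-A5, read 9.75, 10.27 and 10.10 at 2500 ppm on its leading probe set, against 10.00, 9.83 and 10.41 in controls. The 750 ppm arrays read 9.94, 9.95 and 9.62. The arrays of each group ranged over more than either difference from control, which were -0.039 at 2500 ppm (95% interval -0.43 to 0.36) and -0.24 at 750 ppm (95% interval -0.64 to 0.15). Without control replicate 3 the difference at 2500 ppm was 0.13 (adjusted p = 0.771), with the sign turned. Its other probe sets differed from control by -0.11 and 0.0010 at 2500 ppm and by -0.23 and -0.091 at 750 ppm.

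Epha7 encodes another EphA receptor, and its leading probe set read 7.78, 7.89 and 8.04 at 2500 ppm, against 8.04, 8.23 and 7.77 in controls. The 750 ppm arrays read 8.18, 7.85 and 8.37, so that all groups overlapped. Its difference at 2500 ppm was -0.11 (95% interval -0.44 to 0.23), and that of the other probe set was -0.14 (95% interval -0.44 to 0.16). Ephb1, a receptor of ephrin-B ligands known in mouse for sorting retinal axons at the optic chiasm, read 9.33, 9.42 and 9.29 at 2500 ppm, against 9.40, 9.38 and 9.34 in controls. The 750 ppm arrays read 9.16, 9.14 and 9.37. The difference of Ephb1 was -0.030 at 2500 ppm (95% interval -0.20 to 0.14) and -0.15 at 750 ppm (SE 0.073, adjusted p = 0.517).

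**Figure D2:**
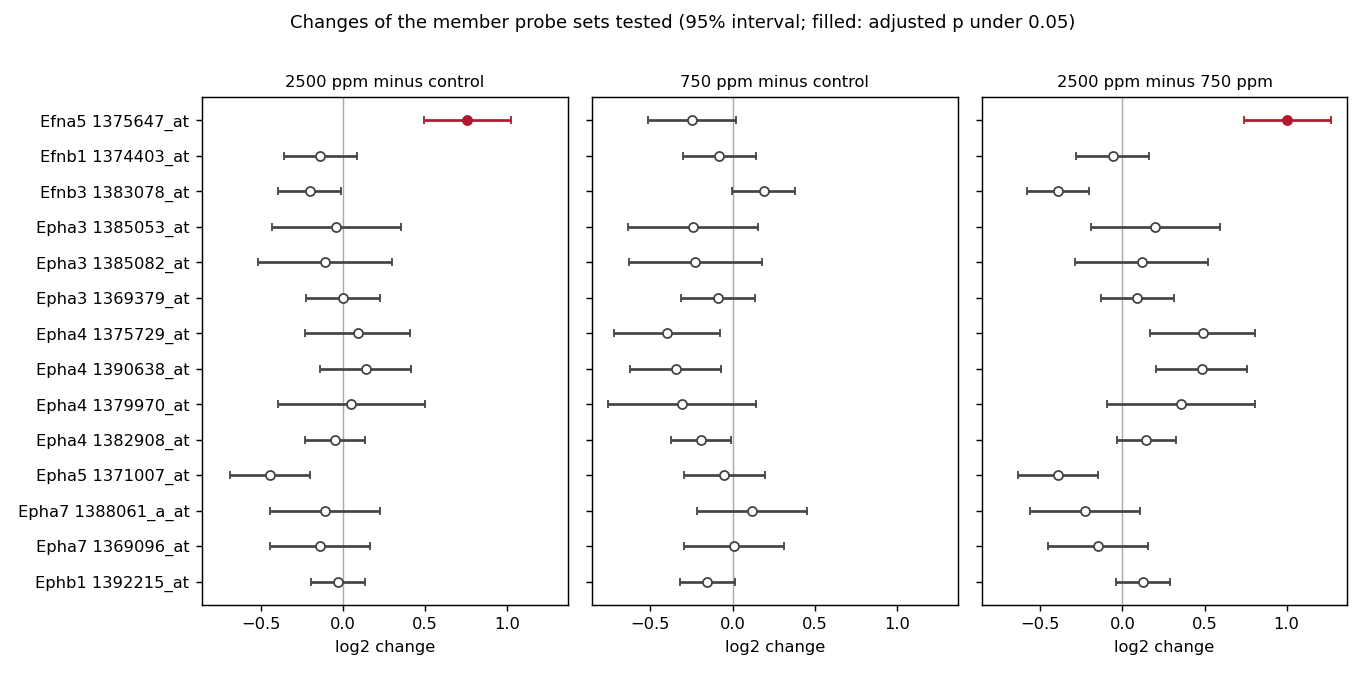
Log2 change (horizontal axis) of the 14 ephrin and Eph receptor probe sets tested, with 95% intervals, in a panel for each comparison of diets, filled where the adjusted p was under 0.05. The filled points are those of Efna5 at 0.76 and 1.00, and the Epha5 interval from -0.69 to -0.20 lies on the other side of 0.

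Over the 14 probe sets tested, 1 passed at 2500 ppm against control, the Efna5 probe set, where 0.686% of all 21729 probe sets passed. The genes were chosen with earlier results of these data known. The share of the 14 that passed therefore cannot be tested against that of all probe sets, and no conclusion is drawn from it. At an unadjusted p under 0.05 there were 3, Efna5 higher and Epha5 and Efnb3 lower, which is 21.4% against 16.0% of all probe sets. The same 3 were those without overlap between 2500 ppm and control arrays, against 23.3% of all probe sets. The shares at an unadjusted p and without overlap are near the background. The median change of the 14 was -0.042, against 0.0070 over all probe sets.

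At 750 ppm against control, 0 of the 14 passed in limma, where 0.00920% of all probe sets did, and 3 had an unadjusted p under 0.05, against 10.1% of all, or 4.37% counting lower values alone. Those 3 were all lower, all of Epha4, and so share a gene. None of the 14 was without overlap, against 14.2% of all. The median change of the 14 was -0.17 with 11 lower, against 0.0023 and 49.1% lower over all probe sets. The 11 include every probe set of Epha4 and of Epha3, which are not independent within a gene. Counting the leading probe set of each gene alone, 6 of 8 were lower, with a median of -0.12. At 2500 ppm against 750 ppm, 1 passed, again Efna5, where 0.322% of all probe sets did, and 5 had an unadjusted p under 0.05, against 12.6% of all. These were Efna5 and 2 Epha4 probe sets, which were higher, and Efnb3 and Epha5, which were lower. The same 5 were without overlap, against 17.4% of all. Along the line over diet 0 of the 14 passed in limma, where 0.479% of all did, with Efna5 and Epha5 both at an adjusted p of 0.0926. The 3 comparisons share arrays, so their values for the same gene are not independent. Because the genes were chosen with earlier results known, the shares of the 14 beside those of all probe sets are a description only.

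**Figure D3:**
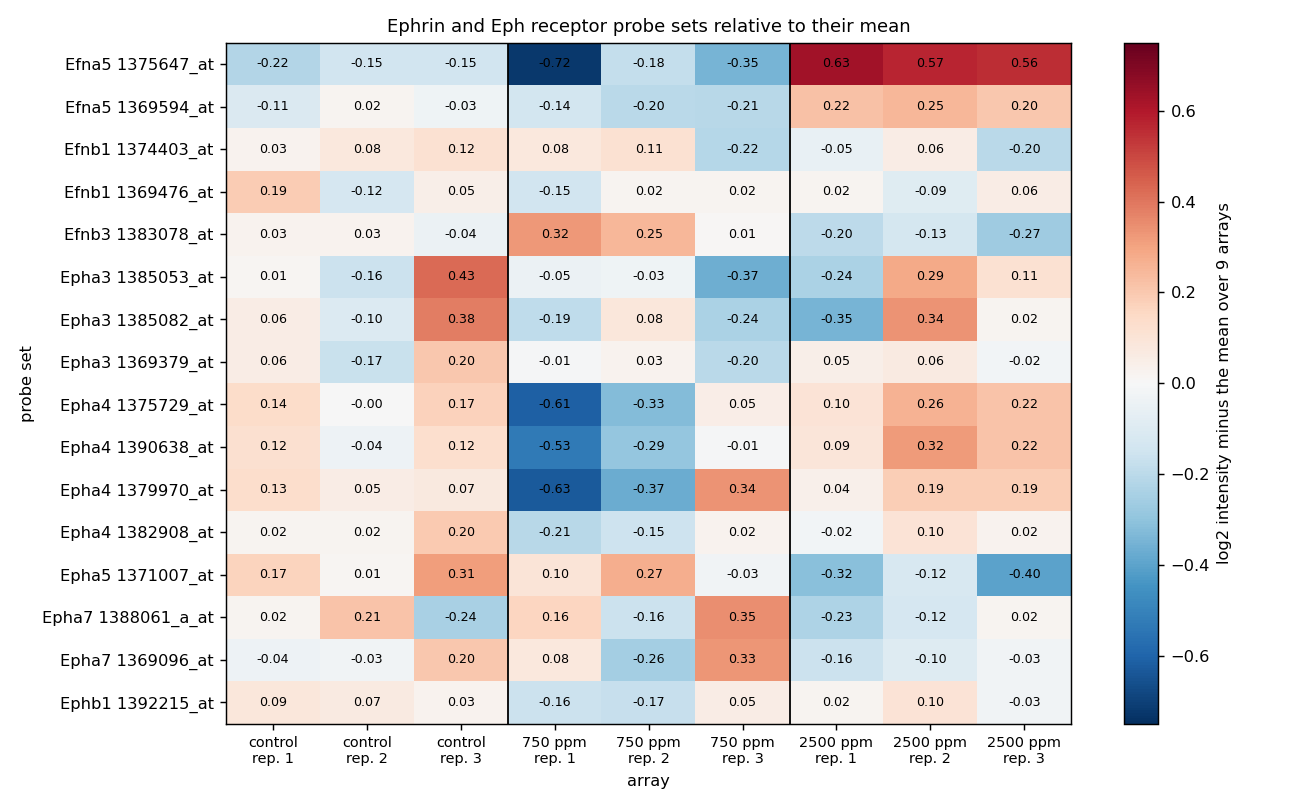
Log2 intensity of each of the 16 probe sets minus its mean over the 9 arrays, by array, with the value printed in each cell and red above and blue below the mean. The Efna5 rows are red in all 2500 ppm columns, the Epha5 and Efnb3 rows are blue there, and the Epha4 rows are blue at 750 ppm in replicates 1 and 2.

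Set beside its receptors array by array, Efna5 was highest on the 3 arrays where Epha5 was lowest. On 750 ppm replicate 1, the leading probe set of Efna5 and all 4 probe sets of Epha4 had their lowest values, while the dim probe set of Efna5 was at its highest of the 750 ppm arrays. Pearson r with Efna5 over the 9 arrays was -0.73 for Epha5, 0.70 for Epha4, -0.52 for Epha7 and 0.21 for Epha3. These are descriptions only, since the 2500 ppm arrays form a separate cluster for Efna5 and the arrays share their normalization. Once each group's mean was taken out, r was 0.22 for Epha5, 0.52 for Epha4, -0.36 for Epha7 and -0.12 for Epha3. The negative r of Efna5 and Epha5 over the 9 arrays thus came from differences between groups. Efna5 spanned only 0.072 in controls and 0.075 at 2500 ppm, against 0.54 at 750 ppm. The values without group means therefore rest mostly on the 750 ppm arrays and cannot decide how the genes relate within groups. The 5 genes whose pattern over the 9 arrays was most like that of Efna5, out of 16148 probe sets of other named genes, were Id2 (r = 0.98), Ube2ql1 (0.98), Plxdc2 (0.97), Opcml (0.97) and Arhgef26 (0.96). The most opposed, Tmem170a, had an r of -0.98. All were picked from these same arrays with group differences included, so their r is a description only.

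Marker genes of neighbouring tissues also differed between arrays. Of 12 choroid plexus and ependymal genes, 7 were tested, and the log2 of their summed intensity ranged from 12.29 to 14.35 at 2500 ppm, from 9.83 to 10.67 at 750 ppm and from 9.51 to 9.80 in controls. Their relative mean was 1.48, 1.26 and 0.29 on the 2500 ppm arrays, where Efna5 spanned 0.075 in all, -0.40, -0.28 and -0.46 on the 750 ppm arrays, and -0.57, -0.74 and -0.59 in controls. Against control, the changes of the 7 genes ran from -0.014 to 5.67 at 2500 ppm, with a median of 0.47. Of them, 6 were higher and 1 passed the threshold. At 750 ppm their changes ran from -0.16 to 1.33, with a median of -0.011 and 4 lower. The sum and the mean thus do not stand for an even rise of all 7 genes. Over the 9 arrays r with their relative mean was 0.83 for Efna5, -0.69 for Epha5 and -0.58 for Efnb3. Kl and Otx2, which are among the defining genes of that list, were below the filter. The part of this tissue in the Efna5 and Epha5 values was not tested.

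Of 17 striatal genes 15 were tested, with a log2 summed intensity of 13.52 to 14.16 at 2500 ppm, 14.01 to 14.56 at 750 ppm and 14.47 to 14.78 in controls. Their relative mean was -0.71 on 750 ppm replicate 3, within the range of the 2500 ppm arrays (-0.85, -0.042 and -0.54), and on that array Efna5 read 10.10, below every control. Epha5 read 11.50 there, the lowest of the 6 arrays outside 2500 ppm. Over the 9 arrays r with the striatal mean was highest for Efnb1, whose groups overlapped, at 0.81, then 0.80 for Epha5 and 0.68 for Efnb3, and it was -0.59 for Efna5. The part of striatal tissue in these values was not tested.

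Of 18 meningeal and fibroblast genes, 16 were tested, with a log2 summed intensity of 14.56 to 14.93 at 2500 ppm, 14.90 to 15.09 at 750 ppm and 13.29 to 14.38 in controls. Of 6 blood genes, 4 were tested, with 14.01 to 14.08 at 2500 ppm, 13.76 to 14.19 at 750 ppm and 13.51 to 13.66 in controls. Both lists were higher at 750 ppm than in controls on every array, while Efna5 at 750 ppm was not above the control range on any. At 2500 ppm against control, all 16 meningeal and all 4 blood genes were higher, with medians of 0.90 and 0.65. Of these, 3 meningeal and 2 blood genes passed in limma, where 0.686% of all probe sets did. At 750 ppm all were higher too, with medians of 1.24 and 0.45, and 0 passed. Of 12 interneuron genes, 8 were tested, with 13.57 to 13.82 at 2500 ppm, 13.24 to 14.11 at 750 ppm and 13.82 to 14.01 in controls, and r with their relative mean was 0.83 for Efnb1, 0.75 for Efnb3 and for Epha5, -0.63 for Epha4 and -0.60 for Efna5. Endothelial genes, of which 14 of 15 were tested, had relative means of 0.018 to 0.21 at 2500 ppm, 0.063 to 0.22 at 750 ppm and -0.49 to -0.071 in controls, and r with them was 0.12 for Efna5 and -0.54 for Epha5. With the blood mean r was 0.43 for Efna5 and -0.60 for Epha5. The part of these tissues in the values of the ephrins and receptors was not tested.

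**Figure D4:**
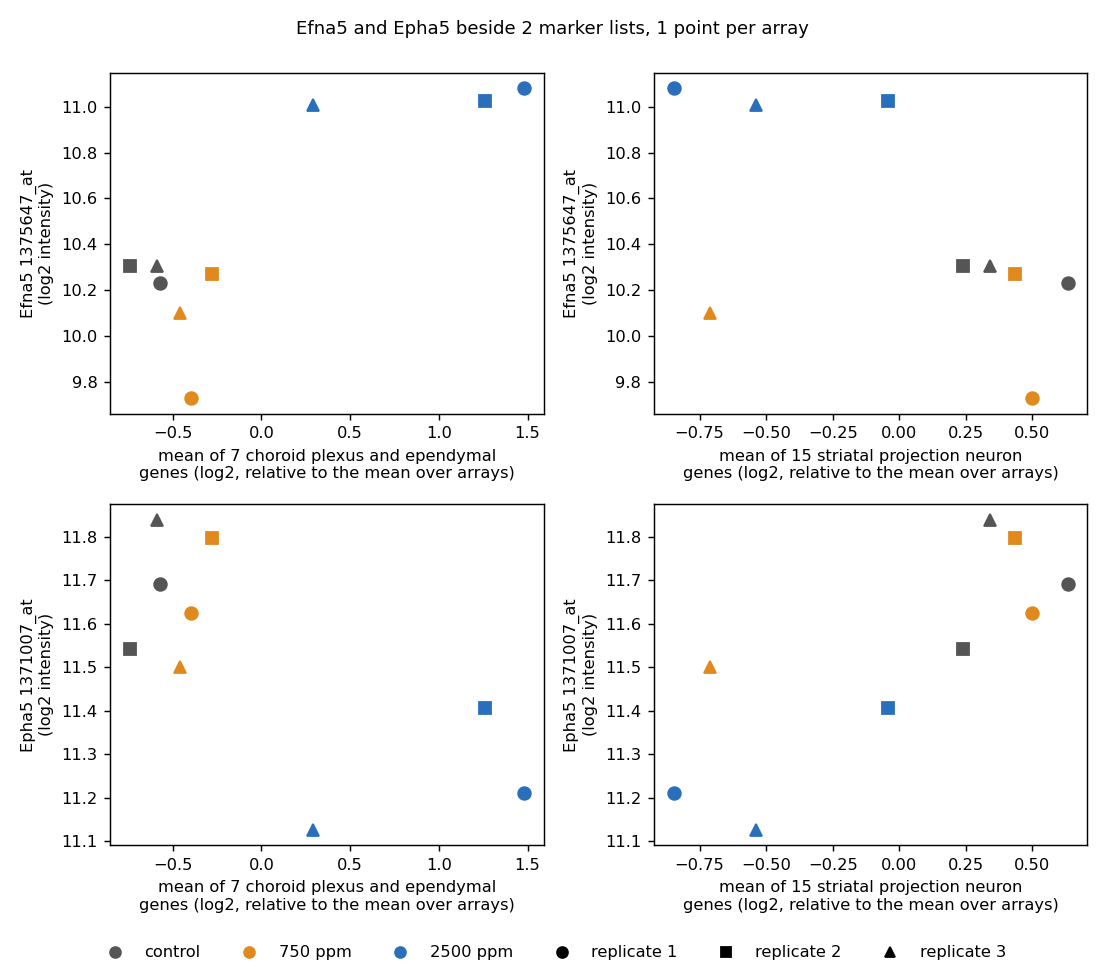
Log2 intensity of the leading Efna5 and Epha5 probe sets (vertical axes) against the relative mean of 7 choroid plexus and ependymal genes or 15 striatal genes (horizontal axes), 1 point per array. The 2500 ppm points of Efna5 stay between 11.01 and 11.08, where the choroid plexus mean spans 0.29 to 1.48. On 750 ppm replicate 3 the striatal mean is low and the Efna5 level is 10.10. The part of either tissue in the Efna5 and Epha5 values was not tested.

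The remaining ephrins and Eph receptors were measured less fully. Of 12 such genes, 8 were tested, and 0 passed in limma in any comparison. At 2500 ppm against control 0 had an unadjusted p under 0.05, with a median change of 0.056. The largest of these was Ephb4, a receptor known from blood vessels, at 0.27 (SE 0.12, adjusted p = 0.320), and at 750 ppm it was 0.40 above control (SE 0.12, adjusted p = 0.312). Epha6 differed by -0.21 at 2500 ppm against control and by -0.49 at 2500 ppm against 750 ppm (SE 0.17, adjusted p = 0.295). Ephb6, a receptor without kinase activity, differed by 0.25 at 2500 ppm and -0.17 at 750 ppm against control, with adjusted p of 0.635 and 0.818.

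Genes that carry the signal inside the cell did not pass either. Of 44 adaptors, kinases, exchange factors and proteases, 41 were tested and 0 passed in limma in any comparison. At 2500 ppm against control, 5 higher and 3 lower genes of the 41 had an unadjusted p below 0.05, near the 16.0% of all probe sets, with a median of -0.024. The smallest p belonged to Grip1, a scaffold that binds ephrin-B proteins and AMPA receptors, at -0.34 (SE 0.092, adjusted p = 0.122), then to Rgs3, a regulator of G protein signals, at 0.44 (SE 0.13, adjusted p = 0.145) and to Sdcbp, which encodes the scaffold syntenin, at 0.20 (adjusted p = 0.193). At 750 ppm against control the adaptor genes Grb10 and Nck1 differed by 0.41 (SE 0.091, adjusted p = 0.201) and 0.18, and the kinase gene Fyn by -0.14, and these were the genes of the 41 with an unadjusted p below 0.05, where 10.1% of all probe sets had one. Between 2500 ppm and 750 ppm, Nck1, Grb10 and the Ras regulator gene Rasa1 differed by -0.26, -0.34 and -0.32, with adjusted p of 0.184, 0.184 and 0.269.

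Among other families of axon guidance, 40 of 48 genes were tested and 0 passed in limma. Against control, at 2500 ppm, 7 of the 40 had an unadjusted p below 0.05, 4 of them higher, near the 16.0% of all probe sets, with a median of -0.031. Robo1, a receptor of Slit proteins, was at -0.39 against control (SE 0.082, adjusted p = 0.0704) and at -0.39 against 750 ppm (SE 0.082, adjusted p = 0.0973). The semaphorin receptor gene Nrp1 was at 0.40 (adjusted p = 0.160) and the semaphorin gene Sema3d at 0.58 (adjusted p = 0.164) at 2500 ppm. At 750 ppm Ntng1, which encodes netrin-G1, was at 0.74 (SE 0.25, adjusted p = 0.358), Slit2 at 0.29 and Sema6a at 0.26, and 1 of the 40 had an unadjusted p under 0.05, against 10.1% of all probe sets. Between 2500 ppm and 750 ppm, Sema6a was at -0.56 (adjusted p = 0.160) and the plexin gene Plxnc1 at -0.76 (adjusted p = 0.188).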

How the data were processed

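Total RNA of 9 cortex samples was amplified and labelled with an in vitro transcription kit, per the labels' protocols. The deposited values are log2 intensities made with the affy package and RMA (background correction, quantile normalization between arrays and a summary per probe set), per the submitters' processing notes; no versions are given in the sources used here. RMA compresses differences near background, and depth does not apply: the number of arrays limits the precision.

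The 57 AFFX controls and the 30% of probe sets with the lowest mean (under 6.35) were left out, which left 21729. limma 3.58.1 (R 4.3.3) fitted 1 mean per group to all 9 arrays, tested on simulated data first. P-values were two-sided and Benjamini-Hochberg adjusted over all 21729 per comparison (threshold 0.05). With 3 arrays a group, exact permutation can reach no p below 0.1. Each pup came from its own litter, so p-values measure the spread between single pups of different litters. Variation between litters, pups and arrays cannot be told apart in it.

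Symbols came from the platform annotation (20826 probe sets with 1 symbol, 436 with several, 9780 with none); the 8 genes with a probe set matched GRCr8 by Entrez identifier. Per gene, the probe set with the highest mean leads. Named from the other lists were the genes past the threshold and up to 3 with the smallest p per comparison. The members and lists were chosen with earlier results of these data known. Alternatives were other filters, scalings, variance models, array weights, a replicate block, pairwise fits, 1 probe set per gene and leaving out each array. Protein sequences were not used here.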

Additional observations from a re-analysis of the deposited data

How the results depend on the processing

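Of 792 recomputed member changes, 724 kept their direction and their side of the threshold, 19 gained a call, 10 lost one and 39 changed sign with neither value called. The change of Efna5 at 2500 ppm stayed between 0.73 and 0.79 over 19 alternatives and passed in 12 of them, with adjusted p of 0.00454 to 0.108. The number of member probe sets passing at 2500 ppm against control was 0 to 1 when each array was left out, 0 with replicate 3 of the control and 750 ppm groups left out together (an alternative added after seeing the data, Efna5 adjusted p = 0.0539), and 3 with array weights, Efna5, Epha5 and Efnb3. At 2500 ppm against 750 ppm it was 0 to 5 when each array was left out, 5 without 750 ppm replicate 3, 2 without the filter, 5 with array weights, 0 when only the groups compared were fitted (Efna5 adjusted p = 0.0711) and 6 with that pair left out, Efna5, Efnb3, Epha5 and 3 of Epha4. At 750 ppm against control it was 2 with array weights, both of Epha4, and for the trend it was 2 with array weights and 0 to 1 when each array was left out. Array weights gave control replicate 1 a weight of 5.61 and control replicate 3 a weight of 0.26. Over all probe sets, calls ranged over the alternatives from 9 to 1495 at 2500 ppm against control, where 149 passed, from 13 to 1137 at 2500 ppm against 750 ppm, where 70 passed, and from 0 to 340 at 750 ppm against control, where 2 passed. The 1495 and the 340 came with array weights, and the 1137 with replicate 3 of the control and 750 ppm groups left out together. At 2500 ppm against 750 ppm, 728 passed without 750 ppm replicate 3 and 721 with array weights. Fits that leave out an array have fewer samples. Of other lost or gained calls the cause was not tested.

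The replicate numbers are shared by the groups, and the deviations of same-numbered arrays from their group means correlated between -0.21 and 0.31. Differently numbered arrays were not compared, so these values cannot decide whether the numbers mark a pairing. With a replicate block the member counts were 1, 0 and 1 in the 3 comparisons, and Efna5 at 2500 ppm against control had an adjusted p of 0.0470; over all probe sets 36 passed at 2500 ppm against 750 ppm in place of 70.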
